A study of Mus musculus with 9 samples.

Results

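The Hippo pathway and its YAP target genes were examined as a set of 10 genes in mouse ovarian RNA-seq. They were the kinase genes Stk3, Stk4, Lats1 and Lats2, the coactivator genes Yap1 and Wwtr1, the partner gene Tead1 and the target genes Ccn1, Ccn2 and Amotl2. They were chosen by symbol, and all 10 were present among the 19517 genes of the authors' deposited table, each with a value in all 3 comparisons. The 9 libraries came from ovaries of nude mice (female, BALB/c), which lack a thymus, bearing xenograft tumors grown from the human breast cancer line MDA-MB-231. The CAU group (3 libraries) had caulerpin, an alkaloid known from green algae, the CTX group (3 libraries) had cyclophosphamide, an alkylating chemotherapy drug, and the UT group (3 libraries) had no treatment. All 3 groups carried the xenograft. For the CAU group the labels name no agent but caulerpin, so a combination with cyclophosphamide is not stated, and doses, times and ages were not given in the sources used here.

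In the Hippo pathway, the kinases STK4 and STK3, also known as MST1 and MST2, activate the kinases LATS1 and LATS2. These phosphorylate the coactivators YAP (from Yap1) and TAZ (from Wwtr1) and so keep them out of the nucleus. When the kinases are less active, YAP and TAZ enter the nucleus, bind TEAD factors and switch on genes such as Ccn1 and Ccn2, which encode secreted matricellular proteins, and Amotl2, which encodes an angiomotin that binds YAP at cell junctions. In the ovary the pathway is known for its part in follicle growth, and CCN2 is made by granulosa cells. Much of the control is by phosphorylation and location of the proteins, which RNA levels do not measure.

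TEAD factors bind the motif GGAATG, or CATTCC on the other strand. RefSeq promoter windows (GRCm38.p6, 250 bases before to 50 after the start site) were found for 7 of the 10 members, and 5 of the 7 held the motif in at least 1 window, as did 16.6% of all 27025 genes with a window (14.7% of 32851 windows). Both strands were searched. The windows of Ccn1, Yap1 and Wwtr1 are shown around the motif, because their stretches end before the start site and overlap no GENCODE M21 exon. The stretches lie at chr3:145650053-145650118 (Ccn1), chr9:8004702-8004767 (Yap1) and chr3:57576011-57576076 (Wwtr1), all on the minus strand. Each run is on the gene's own strand, 5′ to 3′, with the motif in capitals.
Ccn1: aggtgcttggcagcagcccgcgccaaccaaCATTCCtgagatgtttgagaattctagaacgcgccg
Yap1: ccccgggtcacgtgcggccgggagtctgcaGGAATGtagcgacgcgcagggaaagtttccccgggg
Wwtr1: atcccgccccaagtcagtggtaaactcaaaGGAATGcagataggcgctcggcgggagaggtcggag
Counted from the start site, the motif began at -103 in Ccn1, at -141 in Yap1 and at -136 in Wwtr1 (-170 from the other annotated start). In Amotl2 it began at -65 and in Lats2 at base 5 of the transcript, both in stretches that GENCODE M21 also counts as exon. The Amotl2 stretch, at chr9:102717709-102717774, lies inside the annotated gene, which begins at 102717091 on the plus strand. The start site used for Amotl2 is thus one within the gene. The windows of Stk4 and Lats1 held no match. A match describes the letters and is not evidence of binding.

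**Figure D1:**
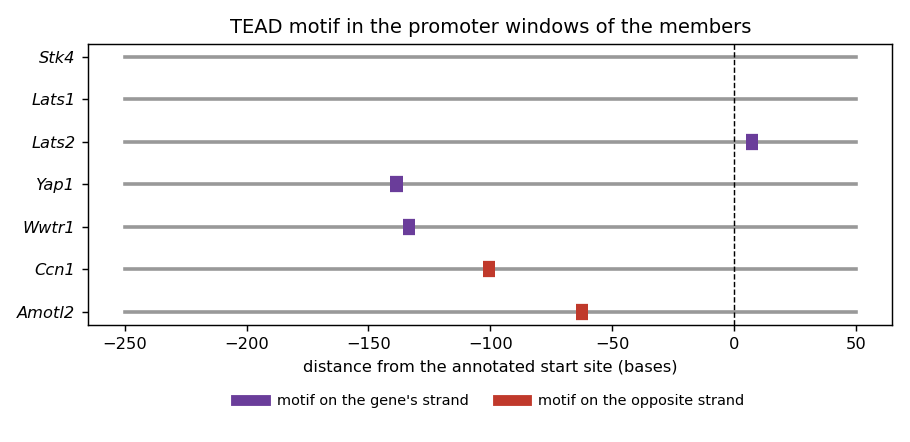
Position of the TEAD motif (bars) in the promoter windows of the 7 members with a RefSeq window, in bases from the annotated start site (dashed line). For genes with more than 1 window, the first with a match is drawn. Ccn1, Yap1, Wwtr1 and Amotl2 have it before the start, Lats2 just after it, and Stk4 and Lats1 have none. The start site drawn for Amotl2 lies within the annotated gene.

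In GRCm38.p6, the kinase genes lie at chr15:34875499-35155882 (Stk3, minus strand), chr2:164074113-164155524 (Stk4, plus strand), chr10:7681200-7716461 (Lats1, plus strand) and chr14:57689662-57746212 (Lats2, minus strand). Yap1 lies at chr9:7931999-8004638 (minus strand), Wwtr1 at chr3:57455644-57575910 (minus strand) and Tead1 at chr7:112679356-112906784 (plus strand). Ccn1 lies at chr3:145646971-145649985 (minus strand), Ccn2 at chr10:24595442-24598683 (plus strand) and Amotl2 at chr9:102717091-102733418 (plus strand). All are protein coding. In GENCODE M21, exons of Yap1 and Ccn2 overlap those of Gm20416 and Gm15270 on the opposite strand, and exons of Lats2 overlap those of Gm49361 on the same strand. The strand setting of the counting was not given in the sources used here, so reads of Yap1 and Ccn2 may not be separated from their neighbours. For Lats2 the overlap is on the same strand, so no strand setting would separate reads of the shared stretch.

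Each value below is a log2 fold change between groups from the authors' deposited table, with the standard error (SE) that its DESeq2 p-value implies and a 95% interval from that SE. Levels in single ovaries and overlap between libraries are not analysed here, because the values used are per comparison, and the depth of each library is unknown. Columns were read as the second group named over the first; this reading puts 4 of 6 p53 target genes past the threshold as higher and 0 as lower in CTX, and the opposite reading would turn every sign below. Nothing in the labels ties a library to its own mouse, so the p-values speak to the spread among these samples, part of which may be technical. A gene is called where the deposited adjusted p is under 0.05. Because the tissue was measured in bulk, fewer cells of a type and less RNA per cell cannot be told apart.

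In CTX against UT, no member of the pathway passed the threshold, and the member nearest to it was Stk3. All 3 target genes had values below UT, with Ccn1 at 0.685-fold, Amotl2 at 0.820-fold and Ccn2 at 0.827-fold, while the kinase and coactivator genes and Tead1 lay between 0.965-fold and 1.24-fold. The kinase gene Lats2, which is also on the longer list of YAP and TAZ targets used below, was at 1.06-fold. The count was 0 of 10 members called, against 1.29% of 19260 genes, by DESeq2 per the authors' deposited table. At an unadjusted p under 0.05 there were 3 of 10 members (Stk3 above UT, Ccn1 and Amotl2 below it), against 10.2% of all genes.

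Stk3, which encodes the kinase MST2 at the top of the cascade, was at 0.31 (SE 0.09, 95% interval 0.12 to 0.50) in CTX against UT per the authors' deposited table. That is 1.24-fold, with an interval of 1.09-fold to 1.41-fold, and it did not pass (unadjusted p = 0.00106, adjusted p = 0.0675, DESeq2). The p ranked in the lowest 1.57% of all genes. With the SE of Stk3, a difference of 0.32 would have equalled the least significant gene called, so the value was just short of a call. Setting the median of all genes (-0.03) to 0 moved Stk3 to 0.34 with adjusted p = 0.0343, past the threshold, and over all settings tried its adjusted p lay between 0.0343 and 0.0788.

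The other kinase genes had smaller values with similar errors. Stk4, which encodes MST1, was at 0.13 (SE 0.07, adjusted p = 0.607) per the authors' deposited table. Lats2 was at 0.09 (SE 0.09) and Lats1 at -0.04 (SE 0.08), with adjusted p = 0.939 and 0.978 per the authors' deposited table. The 95% intervals ended at 1.21-fold for Stk4 and Lats2 and at 1.08-fold for Lats1. All 4 kinase genes had an SE below the all-gene median of 0.21, so they were among the more precisely measured genes.

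Of the coactivators, Yap1 was at 0.12 (SE 0.08, 95% interval -0.04 to 0.29, adjusted p = 0.718) per the authors' deposited table, and Wwtr1 was at -0.05 (SE 0.08, 95% interval -0.20 to 0.10, adjusted p = 0.976). Neither value was distinguishable from 0 at this precision. Tead1, a DNA-binding partner of both, was at 0.22 (SE 0.11, unadjusted p = 0.0501, adjusted p = 0.489) per the authors' deposited table, with a lower interval bound just under 0.

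All 3 target genes had negative values in CTX against UT, with wider errors than the kinases. Ccn1 was at -0.54 (SE 0.24, 95% interval -1.02 to -0.07, unadjusted p = 0.0244, adjusted p = 0.369) per the authors' deposited table, which is 0.685-fold of UT. Amotl2 was at -0.29 (SE 0.14, 95% interval -0.56 to -0.02, unadjusted p = 0.0375, adjusted p = 0.438) per the authors' deposited table. Ccn2 was at -0.27 (SE 0.17, 95% interval -0.62 to 0.07, adjusted p = 0.676) per the authors' deposited table. For Ccn1 a fall of 0.83 on the log2 scale would have been needed to equal the least significant gene called, for Ccn2 0.60 and for Amotl2 0.47, so differences of the size seen could not be called at this precision.

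**Figure D2:**
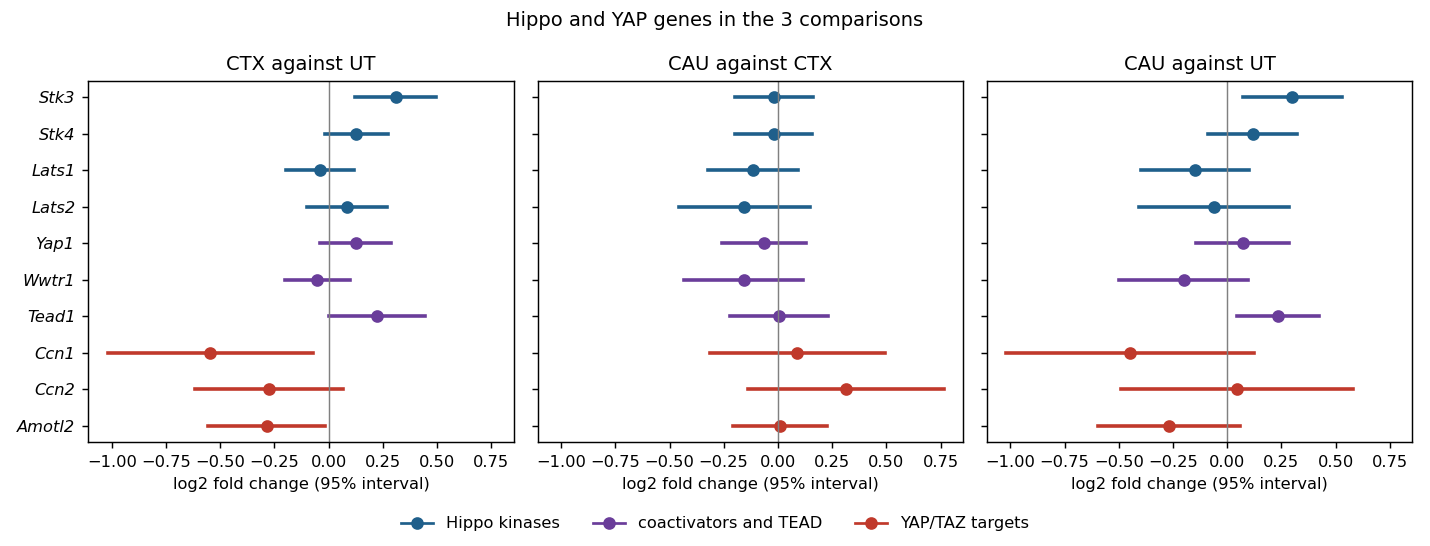
Log2 fold change of the 10 members (points) with the 95% interval implied by the deposited p-value (lines) in CTX against UT, CAU against CTX and CAU against UT. The 3 target genes lie left of 0 in the first panel, Stk3 lies right of 0 in the panels of CTX against UT and CAU against UT (0.31 and 0.30), and all 10 intervals of the middle panel include 0.

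In CAU against CTX, none of the members passed (0 of 10, against 0.442% of 19245 genes), and none had an unadjusted p under 0.05 (5.36% of all genes), by DESeq2 per the authors' deposited table. All 10 intervals included 0, and every adjusted p was 1.00. The kinase genes lay between -0.16 (Lats2, SE 0.15) and -0.02 (Stk3, SE 0.09), and Stk4 and Lats1 were at -0.02 and -0.11 (SE 0.09 and 0.11) per the authors' deposited table. The interval of Stk3 ran from -0.20 to 0.16 on the log2 scale, or 0.872-fold to 1.12-fold.

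Yap1, Wwtr1 and Tead1 were at -0.06, -0.16 and 0.01 (SE 0.10, 0.14 and 0.12) in CAU against CTX per the authors' deposited table. The 3 targets had values above 0. Ccn2, the least precise member here, was at 0.31 (SE 0.23, 95% interval -0.14 to 0.76), Ccn1 at 0.09 (SE 0.21) and Amotl2 at 0.01 (SE 0.11) per the authors' deposited table. The interval of Ccn2 included 0 and reached 1.70-fold.

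In CAU against UT, again no member was called (0 of 10, against 0.0518% of 19302 genes). At an unadjusted p under 0.05 there were 2 members, Stk3 and Tead1, both above UT (3.46% of all genes, 1.2% above UT), by DESeq2 per the authors' deposited table. Stk3 was at 0.30 (SE 0.12, 95% interval 0.07 to 0.53, unadjusted p = 0.0101, adjusted p = 1.00) and Tead1 at 0.24 (SE 0.10, 95% interval 0.05 to 0.42, unadjusted p = 0.0144, adjusted p = 1.00) per the authors' deposited table. The z values of this comparison were narrower than a standard normal distribution (robust spread 0.711), and with z scaled to a spread of 1 both genes passed (adjusted p = 0.0300 for Stk3 and 0.0459 for Tead1), as did 255 genes in all in place of 10. Over the other settings the adjusted p (DESeq2) was at least 0.839 for Stk3 and at least 0.948 for Tead1, and reached 1.00 for both.

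The 95% intervals of the remaining members included 0 in CAU against UT. Stk4, Yap1 and Ccn2 were at 0.12, 0.07 and 0.05 (SE 0.11, 0.11 and 0.27) per the authors' deposited table. Lats2, Lats1 and Wwtr1 were at -0.06, -0.15 and -0.20 (SE 0.18, 0.13 and 0.15) per the authors' deposited table. Amotl2 was at -0.27 (SE 0.17) and Ccn1 at -0.45 (SE 0.29) per the authors' deposited table, with intervals of -0.60 to 0.06 and -1.02 to 0.12.

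**Figure D3:**
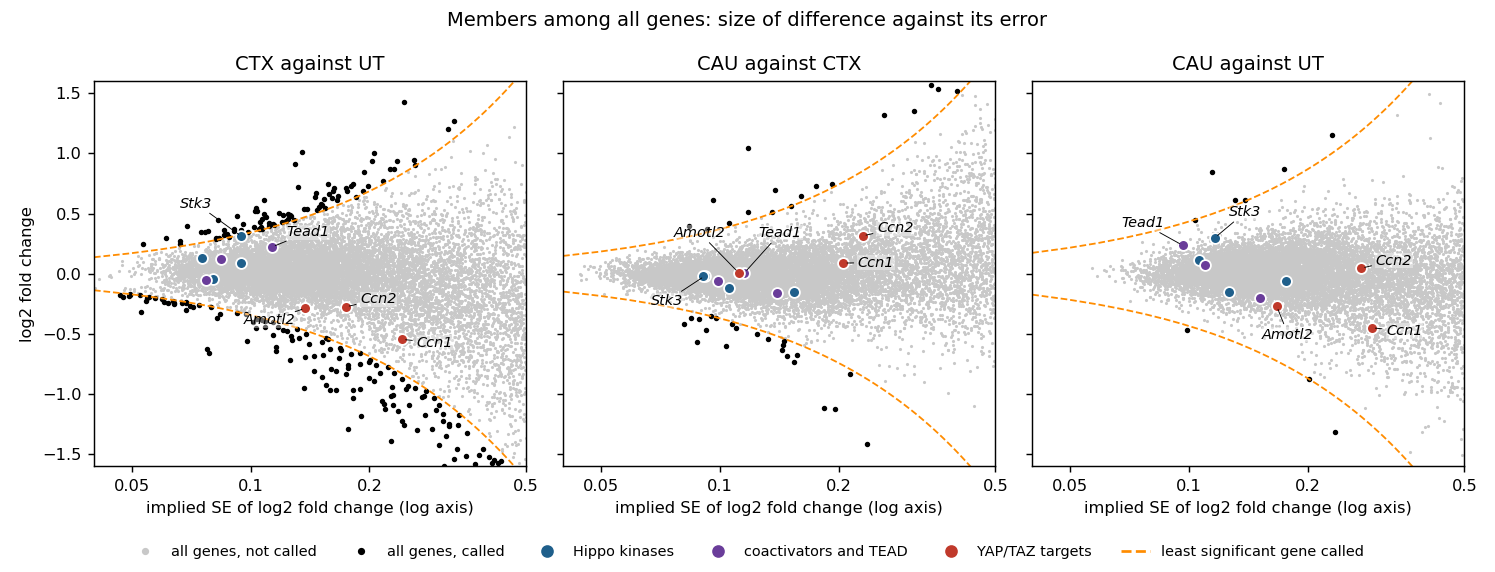
Log2 fold change against its implied SE (log axis) for all genes in view (grey, called ones black) and the 10 members (coloured) in each comparison. Dashed lines mark the ratio of the least significant gene called. No member lies beyond them, Stk3 comes closest in CTX against UT, and Ccn1 and Ccn2 have the largest errors of the members.

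CTX against UT and CAU against UT share the UT libraries, and CAU against CTX shares libraries with each, so the order of the groups is a description. The point values of Stk3, Stk4 and Yap1 were highest in CTX, then CAU, then UT, while Tead1 was highest in CAU, then CTX, then UT. For Ccn1 and Amotl2 the order was UT, CAU, CTX, and for Lats1 and Wwtr1 UT, CTX, CAU. Lats2 ran CTX, UT, CAU, and Ccn2 ran CAU, UT, CTX. No neighbouring groups in these orders differed past the adjusted threshold. For Stk3 the CAU and CTX groups were 0.02 apart on the log2 scale, with UT about 0.30 below CAU; for Amotl2 they were 0.01 apart, with UT 0.27 above CAU.

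Of 51 distinct genes on the lists of Hippo components, YAP, TAZ, TEAD and VGLL genes and YAP and TAZ targets, 41 were not members. Of these 41, 1 was called in CTX against UT, 0 in CAU against CTX and 0 in CAU against UT, by DESeq2 per the authors' deposited table (1.29%, 0.442% and 0.0518% of all genes). At an unadjusted p under 0.05 there were 11, 3 and 1 of the 41, against 10.2%, 5.36% and 3.46% of all genes.

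Among 23 Hippo kinases, scaffolds and upstream genes, none was called in CTX against UT, CAU against CTX or CAU against UT. Of all genes, 1.29%, 0.442% and 0.0518% were called in the same order. At an unadjusted p under 0.05 (DESeq2) there were 3, 2 and 1 of the 23, against 10.2%, 5.36% and 3.46% of all genes. The medians were 0.03 in CTX against UT, -0.09 in CAU against CTX and -0.06 in CAU against UT (all genes -0.03, 0.0040 and -0.01). In CTX against UT the scaffold gene Sav1, whose product holds MST kinases to LATS, was at -0.21 (SE 0.13), and Nf2, which encodes the upstream activator merlin, was at -0.0035 (SE 0.08) per the authors' deposited table. Taok3, of the TAO kinases, which activate MST kinases, was at 0.26 (SE 0.13, unadjusted p = 0.0477) and Mob1a, a LATS cofactor, at 0.13 (SE 0.07) per the authors' deposited table. The angiomotin genes Amot and Amotl1 were at 0.14 (SE 0.16) and -0.11 (SE 0.10) in that comparison of the authors' deposited table.

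Of the same 23 genes in CAU against CTX, 19 had negative values (47.7% of all genes did). The lowest p belonged to Fat4, an atypical cadherin, at -0.32 (SE 0.12, unadjusted p = 0.0108, adjusted p = 0.524), and to Wwc1, which encodes the scaffold KIBRA, at 0.89 (SE 0.40, unadjusted p = 0.0252, adjusted p = 0.748) per the authors' deposited table. In CAU against UT, 15 of the 23 had negative values (52.2% of all genes did), and Stk3 was followed by Sav1 at -0.25 (SE 0.14, unadjusted p = 0.0709) per the authors' deposited table.

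The other TEAD genes had negative values in CTX against UT and in CAU against UT, where that of Tead1 was positive. Tead3 was at -0.25 (SE 0.12, unadjusted p = 0.0353, adjusted p = 0.432), Tead4 at -0.46 (SE 0.34) and Tead2 at -0.06 (SE 0.11) in CTX against UT per the authors' deposited table. Against UT, the CAU group had -0.24 (SE 0.14) for Tead3, -0.33 (SE 0.36) for Tead4 and -0.03 (SE 0.14) for Tead2 per the authors' deposited table. Differences between TEAD genes were not tested. Vgll4, which encodes a competitor of YAP for TEAD, was at -0.11 (SE 0.10) in CTX against UT, -0.12 (SE 0.11) in CAU against CTX and -0.23 (SE 0.13) in CAU against UT per the authors' deposited table.

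YAP and TAZ targets had mostly negative values in CTX against UT. Of 22 target genes, 4 of them members, 1 fell (0.82% of all genes fell) and none rose, 18 had negative values (55.8% of all genes did), and the median was -0.27 against -0.03 for all genes. At an unadjusted p under 0.05 there were 9 lower and 2 higher (5.79% and 4.42% of all genes), by DESeq2 per the authors' deposited table. The 4 members on the list were Ccn1, Ccn2 and Amotl2, which were negative, and Lats2, which was positive at 0.09 (SE 0.09). Among the 18 targets that are not members, 15 were negative with a median of -0.24. The list was written with earlier results of these data known, those for Igfbp3 among them, and no test of the list was made.

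The gene that fell was Igfbp3, which encodes a carrier protein for insulin-like growth factors, at -1.54 (SE 0.41, adjusted p = 0.0209) per the authors' deposited table. Next by p were Gadd45b, a stress response gene, at -0.61 (SE 0.20, adjusted p = 0.115), Axl, a receptor tyrosine kinase gene, at -0.27 (SE 0.09, adjusted p = 0.129), and Nt5e, which encodes the ectonucleotidase CD73, at -1.08 (SE 0.41, adjusted p = 0.209) per the authors' deposited table. Ajuba, which encodes a LIM protein that inhibits LATS, was at -0.26 (SE 0.12, adjusted p = 0.413), and Ptpn14, whose product binds YAP, at -0.19 (SE 0.25, adjusted p = 0.963) per the authors' deposited table. Asap1 and Arhgef17, both linked to control of the actin cytoskeleton, had positive values of 0.21 and 0.20 (SE 0.10 each, adjusted p = 0.401 and 0.488) per the authors' deposited table. Ankrd1, often used as a YAP reporter, was at -1.03 with an SE of 2.44 per the authors' deposited table and gives no usable comparison here.

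In CAU against CTX the 22 targets were centred on 0 (median 0.01, 13 positive, 0 called), and 1 had an unadjusted p under 0.05. Over all genes the median was 0.0040, 52.3% were positive, 0.442% were called and 5.36% had an unadjusted p under 0.05 (DESeq2). The target was Myof, a membrane repair gene, at 0.27 (SE 0.08, unadjusted p = 0.00138, adjusted p = 0.169) per the authors' deposited table. In CAU against UT, 18 of the 22 were negative with a median of -0.18, 0 were called, and 1 had an unadjusted p under 0.05, Igfbp3 at -0.94 (SE 0.47, unadjusted p = 0.0433, adjusted p = 1.00) per the authors' deposited table. Over all genes in that comparison 52.2% were negative, the median was -0.01, 0.0518% were called and 3.46% had an unadjusted p under 0.05 (DESeq2).

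**Figure D4:**
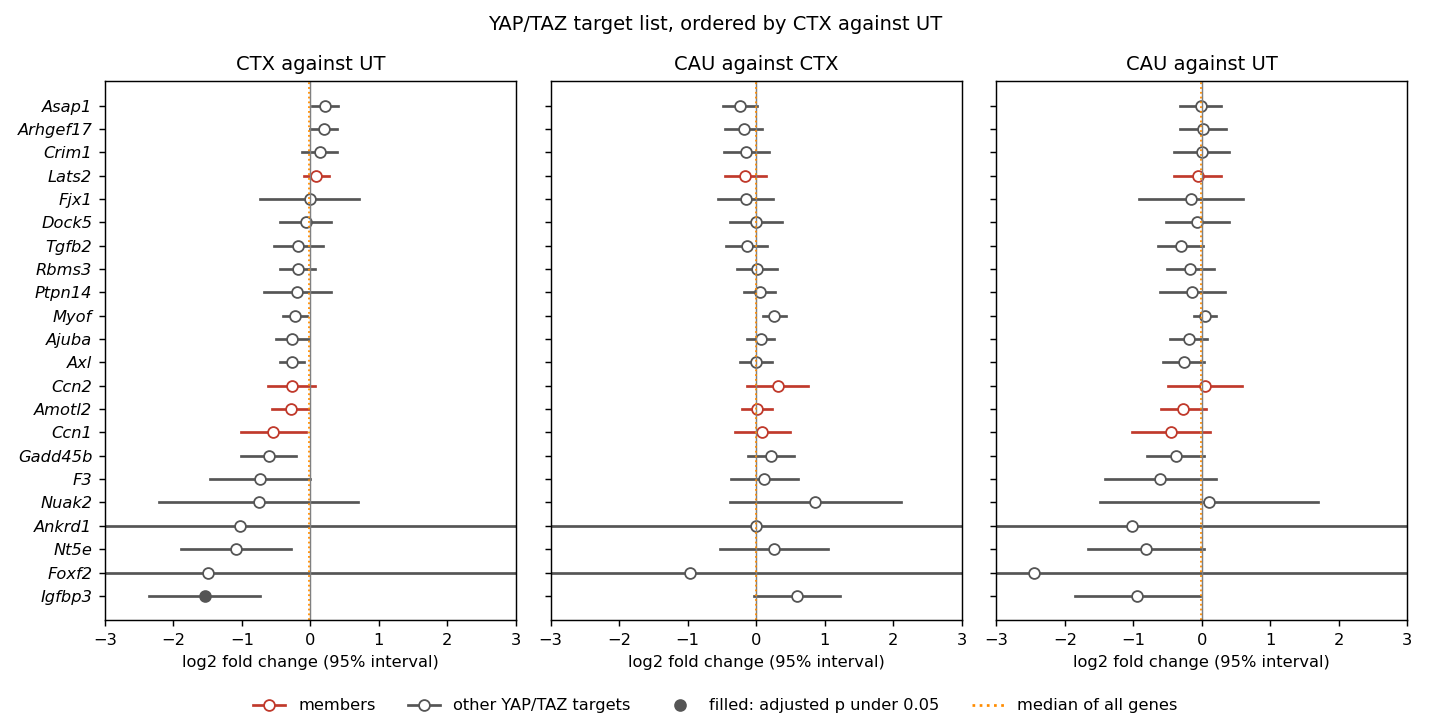
Log2 fold change with 95% interval for the 22 YAP and TAZ targets, ordered by their value in CTX against UT, in the 3 comparisons; members are red, called genes filled, and lines for Ankrd1 and Foxf2 run past the axis. In the first panel 18 of 22 lie left of 0 and Igfbp3 alone is called; in the middle panel 13 of 22 lie right of 0.

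Within the CCN family of 6 matricellular genes, no gene was called in any comparison and 1 (Ccn1, in CTX against UT) had an unadjusted p under 0.05, by DESeq2 per the authors' deposited table. Of all genes, 1.29% were called in CTX against UT, 0.442% in CAU against CTX and 0.0518% in CAU against UT. An unadjusted p under 0.05 was found for 10.2%, 5.36% and 3.46% of all genes in the same order. In CTX against UT the other members of the family were at -0.02 (Ccn3, SE 0.75), -0.17 (Ccn4, SE 0.22), 0.10 (Ccn5, SE 0.37) and 0.05 (Ccn6, SE 0.37) per the authors' deposited table. The same genes in CAU against CTX were at 0.18 (Ccn3, SE 0.67), 0.01 (Ccn4, SE 0.23), 0.46 (Ccn5, SE 0.35) and -0.15 (Ccn6, SE 0.39) per the authors' deposited table. Against UT, the CAU group had 0.17 (Ccn3, SE 0.57), -0.15 (Ccn4, SE 0.25), 0.56 (Ccn5, SE 0.40) and -0.09 (Ccn6, SE 0.44) per the authors' deposited table.

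Ccn1 is also an immediate early gene, and Ccn1 and Ccn2 respond to TGF-beta and to SRF with its MRTF coactivators, so lists for these were set beside the targets. Of 18 immediate early genes in CTX against UT, 14 were negative (median -0.32, against 55.8% of all genes negative and a median of -0.03), 0 were called and 8 were lower at an unadjusted p under 0.05 (5.79% of all genes). They were led by Klf6 at -0.58 (SE 0.19, adjusted p = 0.0974) and Jun at -0.42 (SE 0.14, adjusted p = 0.117) per the authors' deposited table. Of 11 TGF-beta ligand, regulator and response genes, 0 were called and 8 were negative (median -0.10), 1 of them lower at an unadjusted p under 0.05, Tgfbi at -0.62 (SE 0.22) per the authors' deposited table. Of 15 SRF and MRTF genes, 0 were called and 0 had an unadjusted p under 0.05 (1.29% and 10.2% of all genes), and the median was -0.08. In CAU against CTX these 3 lists had medians of 0.09, -0.10 and 0.08, and in CAU against UT -0.16, -0.11 and 0.02. Again 0 were called (0.442% and 0.0518% of all genes). At an unadjusted p under 0.05 they had 3, 1 and 1 genes in CAU against CTX (5.36% of all genes). In CAU against UT they had 2, 2 and 0 (3.46% of all genes), by DESeq2 per the authors' deposited table.

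Cell type markers also differed in CTX against UT, where 5 of 11 macrophage markers fell (median -0.96), 1 of 10 surface epithelium markers fell (median -1.17), and 3 of 12 granulosa markers rose (median 0.48), while 0.82% of all genes fell and 0.472% rose. With an unadjusted p under 0.05 (DESeq2), 8 macrophage and 7 surface epithelium markers were lower (5.79% of all genes) and 7 granulosa markers higher (4.42% of all genes). The 8 oviduct epithelium (median -0.97), 10 endothelial (median -0.06), 8 smooth muscle (median -0.05) and 12 stroma and theca markers (median 0.10) had 0 called, with 0, 2, 0 and 2 at an unadjusted p under 0.05 (10.2% of all genes), by DESeq2 per the authors' deposited table. In CAU against CTX, 2 macrophage markers rose (median 0.40), and Inhbb of the granulosa markers fell (median -0.16), while 0.442% of all genes were called. With an unadjusted p under 0.05 (DESeq2), 6 macrophage markers were higher and 3 granulosa markers lower (5.36% of all genes in both directions). The surface epithelium (median 0.62), oviduct epithelium (median 0.83), endothelial (median -0.14), smooth muscle (median 0.16) and stroma and theca markers (median 0.04) had 0 called in that comparison, with 5, 2, 2, 0 and 1 at an unadjusted p under 0.05 (5.36% of all genes), by DESeq2 per the authors' deposited table. In CAU against UT, none of the markers of these 7 lists was called (0.0518% of all genes). Macrophage (median -0.44), surface epithelium (median -0.48), granulosa (median 0.34), oviduct epithelium (median -0.10), endothelial (median -0.24), smooth muscle (median 0.07) and stroma and theca markers (median 0.08) had 5, 3, 4, 0, 2, 0 and 1 genes at an unadjusted p under 0.05 (3.46% of all genes), by DESeq2 per the authors' deposited table. All markers of these lists were among the tested genes, but the table holds no levels, so the labelled tissue could be checked only by their presence. Acta2, Actg2, Tagln, Cnn1 and Myl9 of the smooth muscle markers are also on the SRF and MRTF list, so those counts overlap. Whether changes in cell makeup or in immediate early genes had a part in the values of Ccn1, Ccn2, Amotl2 and the other targets was not tested.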

How the data were processed

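RNA-seq of ovarian tissue gave 9 libraries in 3 groups of 3 (CAU, CTX and UT), grouped by the labels. Per the labels' protocols, the library kit was SMARTer mRNA. Per the submitters' processing notes, HISAT2, Bowtie2, RSEM 1.3.1, DESeq2 1.44.0 and build GRCm38.p6 were used, without their roles. Per the file headers, the authors deposited 1 line per gene with its log2 fold change, p-value and q-value (adjusted p, DESeq2) for 3 comparisons. Filters, covariates and strand were not given in the sources used here, and 215 to 272 of 19517 genes were blank in a comparison and left out.

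The members and lists were chosen with earlier results of these data known. An item of the TGF-beta list is not reported here. The implied SE was taken as the size of the log2 fold change over that of the z behind its p-value (2-sided, assuming a Wald test without shrinkage); 95% intervals are normal. The deposited q-value was within 7.74e-05 of a recomputed Benjamini-Hochberg adjustment. The 3 comparisons closed on each other (to 0.01, apart from a constant) for 18772 genes of 18773. For each of the 14 lists the rule names called genes (up to 4) or, with none called, the 2 with the smallest p, besides fixed pathway genes; cell type, immediate early, TGF-beta and SRF lists are given mainly as counts. Scripts used scipy 1.17.1, numpy 2.4.6, matplotlib 3.10.9 and pandas 2.3.3 under Python 3.11.15 and were tested on simulated data.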

Additional observations from a re-analysis of the deposited data

How the results depend on the processing

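Other settings were an adjusted p threshold of 0.10 or 0.01, only genes with an implied SE of at most 1, the median of all genes set to 0, and z divided by its robust spread. Of 150 member values under these 5 settings, 146 kept their direction and their side of the threshold, none changed sign and 4 passed it. Only setting the median to 0 alters the fold changes, so no sign could turn under the other settings. As no member was called at 0.05, the threshold of 0.01 could not move any of them. The count of 146 is therefore largely fixed by the settings and is no measure of robustness. In CTX against UT, 1 of 10 members (Stk3) was called at the threshold of 0.10, against 415 of 19260 genes. With the median set to 0, 1 of 10 (Stk3) was called, against 290 of 19260 genes. Over all settings the adjusted p of Stk3 in that comparison (DESeq2) ranged between 0.0343 and 0.0788. In CAU against UT, 2 of 10 members (Stk3 and Tead1) were called with z divided by its spread, against 255 of 19302 genes. Their adjusted p (DESeq2) ranged from 0.0300 to 1.00 and from 0.0459 to 1.00.

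Counts over all genes in CTX against UT were 415 at the threshold of 0.10 and 117 at 0.01, against 249. With the median set to 0 they were 290 with 156 higher and 134 lower, against 91 higher and 158 lower. In CAU against CTX they were 43 at 0.01 and 237 with z divided by its spread, against 85, and in CAU against UT 255 with z divided by its spread, against 10. The opposite reading of the columns turns every sign and no size or p, and was not computed as a separate setting. No replicate could be left out, and no paired analysis was possible because the table used holds no value per library. Depth per library is unknown, and among the members the implied SE was largest for Ccn1 and Ccn2 in all 3 comparisons.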
